A study of Drosophila melanogaster with 24 samples.

Results

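RNA levels of wild-type Drosophila embryos were compared between 3 to 4.5 h and 4.5 to 6 h after egg laying. The members of this comparison were the 6 samples of w1118 embryos labelled with these collection times, 3 biological replicates per time, out of 24 samples in all. The w1118 strain carries a mutation in the white gene of eye colour and served as the wild type. The other samples were w1118 embryos collected at 0 to 1.5 h and 1.5 to 3 h, and embryos from brat mutant mothers (bratfs1/Df(2L)TE37C-7) at all 4 times, again 3 replicates per group. These mothers carry 1 mutant and 1 deleted copy of brat, whose product represses mRNAs, and the series was made to follow what its absence does to the embryo transcriptome. The genotype is that of the mother. Their mates were males of the same cross, mostly heterozygous for 1 of the 2 chromosomes, so the embryos' own genotypes were mixed. Total RNA from whole embryos was hybridized to NimbleGen arrays that carry probes for transcripts, and each value is a log2 signal intensity. Each collection spanned 1.5 h of development. Replicates 1 and 3 were labelled with Cy5 and replicate 2 with Cy3 at both wild-type times, so that dye was balanced between them. The brat mutant samples had the reverse, with Cy3 for replicates 1 and 3 and Cy5 for replicate 2. Levels compared between genotypes therefore also differ in dye.

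At the earlier of these times gastrulation is being completed and the germ band extends along the dorsal side, and at the later one the germ band is fully extended. Neuroblasts, the stem cells of the central nervous system, leave the neuroectoderm in successive waves over this period, chosen within proneural clusters by Notch signalling, and then divide asymmetrically. The tracheal and salivary placodes form in the ectoderm, and the mesoderm is divided into the precursors of heart, gut muscle and body wall muscle. The early patterning genes that laid out the axes are by then past their main period of transcription, and most maternal mRNAs that are unstable have been cleared. Because RNA came from whole embryos, fewer cells of a type and less RNA per cell cannot be told apart in any value below.

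Rows of the array table that belong to 1 gene were averaged, which gave 13633 genes. Replicates correlated with r between 0.944 and 0.960 over genes expressed in at least 1 group, and samples of different times with r between 0.908 and 0.927. The median over genes of the SD between replicates was 0.271 at 3 to 4.5 h and 0.246 at 4.5 to 6 h on the log2 scale. The median change over all genes was −0.01. By limma at a false discovery rate (FDR) under 5%, 175 genes changed, which is 1.28% of those tested. Of these, 105 (0.77%) were higher and 70 (0.513%) were lower at 4.5 to 6 h, and in each of the 175 the samples of one time lay wholly above or below those of the other. Among the 5560 genes expressed in at least 1 group these shares were 1.65% and 1.21%. Counts of called genes in the lists below are to be set against these shares. Groups that did not overlap were seen for 1291 genes on the higher side (9.47%) and for 1250 on the lower side (9.17%), so most genes whose groups were separate did not pass the test. The rises that passed were between 1.88- and 5.74-fold and the falls between 1.93- and 9.01-fold, with a median of 2.74-fold in both directions. The preceding wild-type interval, 1.5 to 3 h against 3 to 4.5 h, gave 2021 genes (14.8%) by the same test, 951 higher (6.98%) and 1070 lower (7.85%). The 2 intervals share the 3 to 4.5 h samples.

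With 3 samples per group the calls depended on single samples, and the number of arrays limits the precision of every value. An exact permutation test of 3 against 3 samples cannot give a p below 0.1, so all p-values below are those of limma, which shares the spread between genes. The fits with 1 sample left out called between 18 and 47 genes as higher and between 13 and 29 as lower. The numbers of higher and lower genes were 24 and 14 without replicate 1 of 3 to 4.5 h, 38 and 26 without replicate 2 of that time, and 46 and 29 without its replicate 3. They were 18 and 15 without replicate 1 of 4.5 to 6 h, 47 and 25 without replicate 2, and 19 and 13 without replicate 3. Of the 175 genes, 21 were called in all 6 of these fits and 68 in none. For the genes described below, the number of these 6 fits that called the gene is given as "of 6 fits" with the test.

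**Figure D1:**
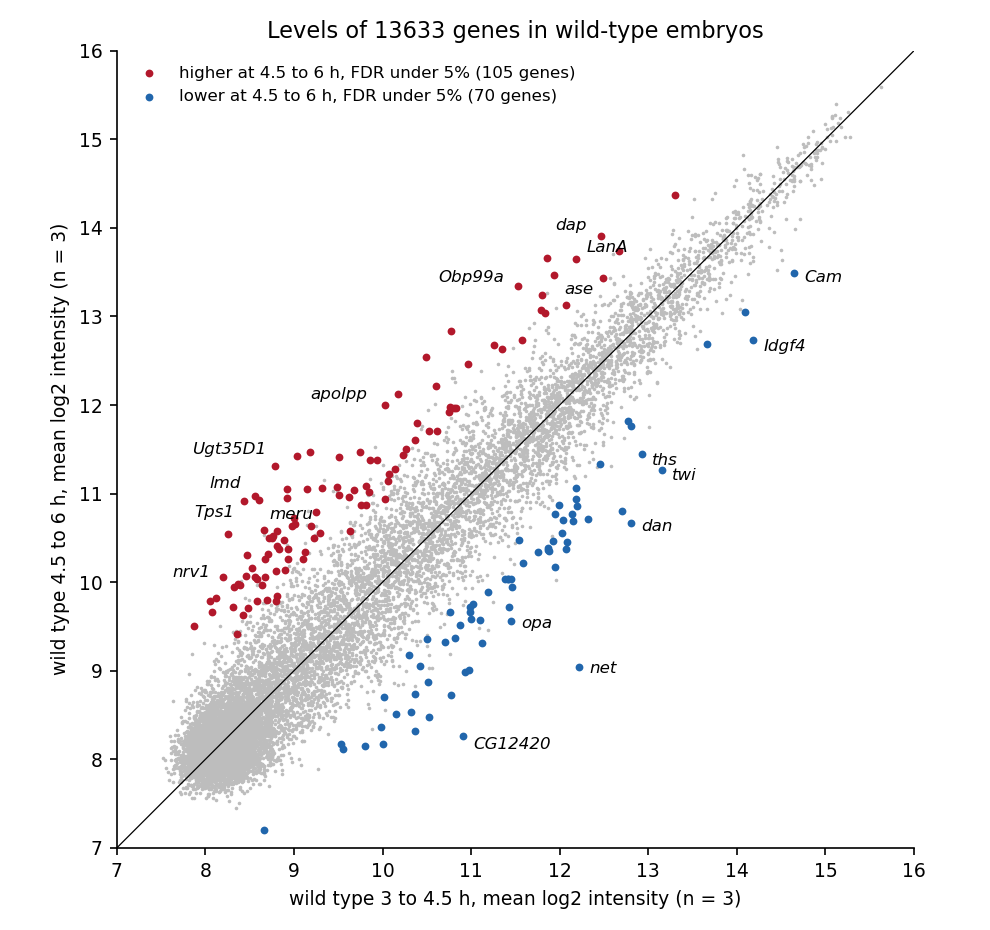
Mean log2 intensity of each of 13633 genes at 3 to 4.5 h (x axis) and 4.5 to 6 h (y axis) in wild-type embryos, n = 3 per time. Red points are the 105 genes that rose and blue points the 70 that fell at an FDR under 5%; grey points are the other genes and the line marks equal levels. Of the rising genes 71 did not lie significantly above the mean of all transcripts of each sample (9.56 over all samples) at the earlier time.

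A gene was counted as expressed in a group when its level lay above the mean of all transcripts in the same sample, by a one-sided test within the group. Over all samples this mean was 9.56. By this measure 34 of the 105 rising genes (32.4%) were expressed at 3 to 4.5 h, against 28.4% of all genes, and 85 were at 4.5 to 6 h. Of the 70 falling genes, 63 (90.0%) were expressed at 3 to 4.5 h and 34 at 4.5 to 6 h. These levels also chose the genes, so the counts are a description only. The remaining 36 of the falling genes did not pass this test at the later time. Genes expressed at neither 0 to 1.5 h nor 1.5 to 3 h had median levels of 8.26 and 8.22 at the 2 times compared here, and such weak signals are called background below. The fold change of a gene that starts or ends there depends on that background.

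Among the 10 genes with the largest rises was lame duck (lmd), a Gli-type zinc finger factor that specifies fusion-competent myoblasts. Its log2 levels were 8.51, 8.49 and 8.69 at 3 to 4.5 h and 10.95, 10.82 and 11.14 at 4.5 to 6 h. All later samples lay above all earlier ones, as the rule that chose these 10 genes required. The rise was 5.3-fold (log2 change 2.41 ± 0.19 SE, adjusted p = 0.00389 by limma), called in 6 of 6 fits without 1 sample. The 2 annotated transcripts of lmd changed by 2.53 and 2.29. The levels of meru, which couples planar polarity to the asymmetric division of sensory organ precursors, were 8.48, 8.86 and 8.46 at 3 to 4.5 h and 11.18, 10.94 and 10.66 at 4.5 to 6 h. It rose 5.01-fold (adjusted p = 0.00408), and was called in 6 of the 6 fits.

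The other large rises belonged mainly to metabolic enzymes, transporters and genes without an assigned function. Tps1, which makes trehalose-6-phosphate, the precursor of the blood sugar of insects, had levels of 8.19, 8.43 and 8.70 at 3 to 4.5 h and 10.37, 11.16 and 11.23 at 4.5 to 6 h, a 5.58-fold rise (adjusted p = 0.00538) that all 6 fits called. Ugt35D1, a UDP-glycosyltransferase, had the largest mean rise, 5.74-fold, but from widely spread earlier samples, 8.24, 8.24 and 9.88, against 11.51, 11.08 and 11.34 later (adjusted p = 0.0237). 1 earlier sample thus stood apart from the other 2, and only 1 of 6 fits called the gene. Prat2, the first enzyme of purine synthesis, rose 4.39-fold from a mean of 8.92 to 11.05 (adjusted p = 0.0161, 2 of 6 fits). Oatp58Dc, an organic anion transporter, rose 4.18-fold from 10.77 to 12.83 (adjusted p = 0.0423, 1 of 6 fits). The remaining 4 were nw (4.17-fold, from 10.49 to 12.55, 6 of 6 fits) and the unnamed genes CG5399, CG7763 and CG18088 (5.28-, 4.92- and 4.87-fold, called in 4, 4 and 6 of 6 fits). Of the 10, nw and Oatp58Dc alone had mean levels above 9.56 before the rise. The mean of nw averages 2 rows of the table, which went from 9.02 to 11.38 and from 11.96 to 13.71.

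The largest fall was that of net, which encodes a basic helix-loop-helix (bHLH) repressor known from wing vein patterning. Its levels were 12.30, 12.33 and 12.02 at 3 to 4.5 h and 9.72, 8.79 and 8.63 at 4.5 to 6 h, a 9.01-fold fall (log2 change −3.17 ± 0.29 SE, adjusted p = 0.00389 by limma) called in all 6 fits. The paralogues distal antenna (dan) and distal antenna-related (danr) code for nuclear proteins with a role in neuroblast competence and in the antenna. The levels of dan were 12.88, 13.19 and 12.34 at 3 to 4.5 h and 10.82, 10.44 and 10.74 at 4.5 to 6 h, and it fell 4.4-fold (adjusted p = 0.00759). Those of danr were 10.97, 10.82 and 11.02 at 3 to 4.5 h and 9.22, 9.11 and 8.62 at 4.5 to 6 h, a 3.86-fold fall (adjusted p = 0.00611). All 6 fits called both. The pair-rule gene odd-paired (opa), a Zic-type zinc finger factor, had levels of 11.39, 11.49 and 11.45 at 3 to 4.5 h and 9.13, 9.75 and 9.79 at 4.5 to 6 h, and fell 3.71-fold (adjusted p = 0.00829, 6 of 6 fits). The samples of the 2 times did not overlap in these 4 genes, as the rule that chose them required.

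The other 6 of the 10 largest falls had mixed roles. Sptr, an enzyme of tetrahydrobiopterin synthesis, fell 4.13-fold from 10.77 to 8.72 (adjusted p = 0.00696, 6 of 6 fits). Mdr49, an ABC transporter with a part in germ cell migration, fell 4.14-fold from 10.52 to 8.47 (adjusted p = 0.0246, 1 of 6 fits). ken, a zinc finger repressor, fell 3.89-fold (adjusted p = 0.0339, 1 of 6 fits), bard 4.13-fold (5 of 6), and the unnamed genes CG12420 and CG11307 6.28- and 3.73-fold (6 and 2 of 6). CG12420 ended at background, with 8.09, 8.01 and 8.67, after 10.98, 10.90 and 10.84.

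**Figure D2:**
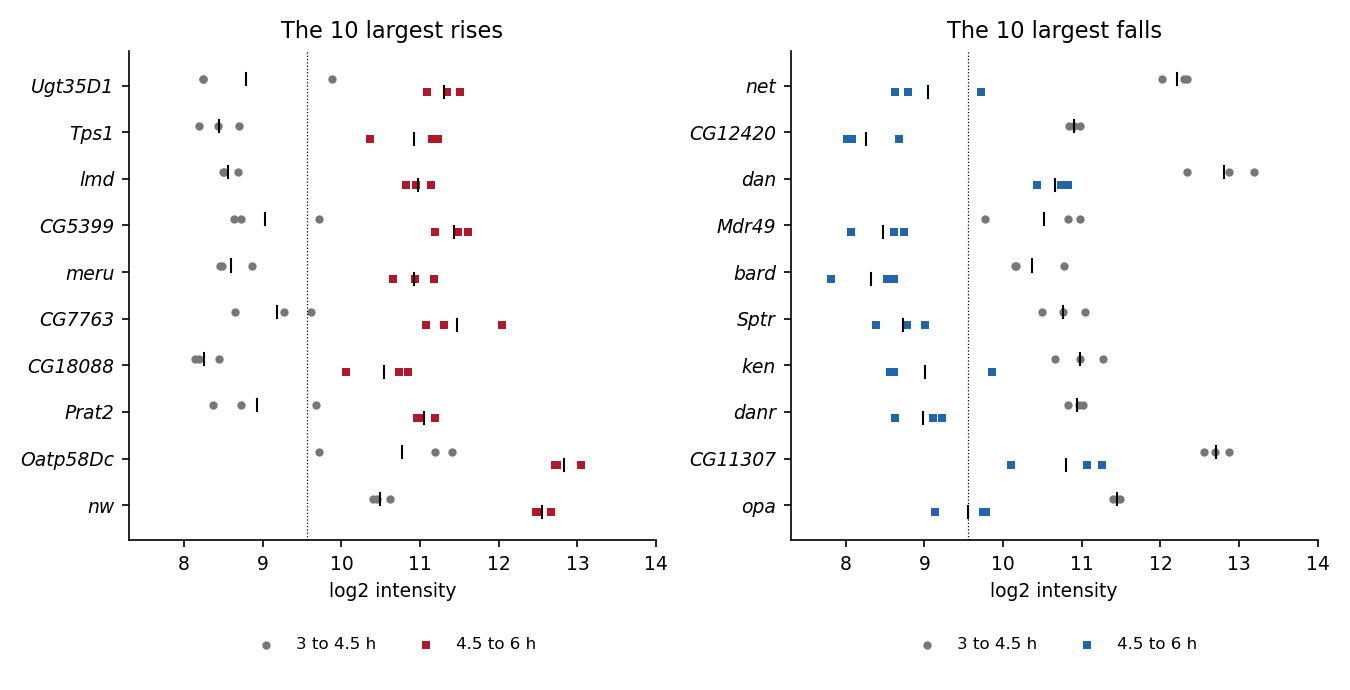
Log2 intensity (x axis) of the 10 genes with the largest rise and the 10 with the largest fall among called genes whose higher mean was above the mean of all transcripts. Points are the 3 wild-type samples at each time, short bars are means, and the dotted line is the mean of all transcripts, 9.56; 8 of the 10 rises begin to its left.

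Among 10 proneural factors, the bHLH proteins and partners that make ectoderm neural, 3 rose and none fell, against 0.77% of all genes rising, and the median change of the list was 0.28. asense (ase), which marks neural precursors, had levels of 11.40, 11.87 and 12.53 at 3 to 4.5 h and 13.41, 13.35 and 13.64 at 4.5 to 6 h, a 2.89-fold rise (adjusted p = 0.0402, 1 of 6 fits, and no call with dye as a covariate). atonal (ato), the proneural gene of stretch receptors and eyes, had 9.96, 9.48 and 9.81 at 3 to 4.5 h and 11.04, 11.52 and 11.85 at 4.5 to 6 h, a 3.29-fold rise (adjusted p = 0.0161, 1 of 6 fits). senseless (sens), a zinc finger factor of sensory organ precursors, had 9.10, 8.23 and 8.80 at 3 to 4.5 h and 9.99, 10.11 and 10.85 at 4.5 to 6 h and rose 3.04-fold from background (adjusted p = 0.0403, 0 of 6 fits). In all 3 the samples of the 2 times were separate, as in every called gene, but few of the fits without 1 sample kept the call.

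The earlier proneural genes of the achaete-scute complex had similar means at both times. The mean of lethal of scute, l(1)sc, was 14.07 and then 14.23, that of achaete (ac) 12.09 and 11.93, and that of scute (sc) 10.58 and 11.05. The general partner daughterless (da) was at 11.72 and 11.78, and extramacrochaetae (emc), which sequesters proneural proteins, at 13.48 and 13.46. None of these passed the test, and the samples of the 2 times overlapped for each. amos and cato, proneural genes of later sense organs, were weak, with means of 8.52 and 8.90 for amos and 8.16 and 8.22 for cato. Of the 5 factors that set out columns or domains of the neuroectoderm (vnd, ind, Dr, SoxN and D), none passed. For ind (means 11.38 and 10.54) and SoxN (11.54 and 10.92) all later samples lay below the earlier ones.

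Among 12 genes that neuroblasts use for their identity and asymmetric division, 1 rose, against 0.77% of all genes, and none fell. The median change was 0.80, compared with −0.01 over all genes. In 7 of the 12 the later samples all lay above the earlier ones, as in 9.47% of all genes and 15.1% of the 5560 expressed in any group, and in none below. klumpfuss (klu), a zinc finger factor that maintains neuroblasts, had levels of 10.29, 10.53 and 10.36 at 3 to 4.5 h and 11.71, 11.77 and 11.91 at 4.5 to 6 h and rose 2.65-fold (adjusted p = 0.0108, 3 of 6 fits). Several members with changes of this size did not pass. worniu (wor), a Snail-family factor, had levels of 10.06, 11.33 and 11.04 at 3 to 4.5 h and 12.52, 12.20 and 12.19 at 4.5 to 6 h (log2 change 1.49 ± 0.31 SE, adjusted p = 0.0615). The change was 1.44 (adjusted p = 0.0838) for nerfin-1, a zinc finger factor of neuroblasts and young neurons, and 1.16 (adjusted p = 0.0509) for partner of numb (pon). It was 1.02 (adjusted p = 0.105) for the bHLH factor deadpan (dpn). By contrast, miranda (mira) and staufen (stau), which carry cargo to the daughter cell, were near 12.2 and 13.5 at both times. Outside the list, sanpodo (spdo), which promotes Notch signalling in 1 daughter of such divisions, rose 2.85-fold from 10.96 to 12.47 (adjusted p = 0.0153, 2 of 6 fits).

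Averaged over 6 markers of neural precursors (wor, dpn, pros, ase, insc and mira), the log2 level of a sample was between 10.48 and 10.87 at 3 to 4.5 h and between 11.55 and 11.61 at 4.5 to 6 h. The temporal factors that neuroblasts express in sequence gave no call among 7. In 4 of the 7 the later samples all lay above the earlier ones, against 9.47% of all genes, and in none below. hunchback (hb) and Krüppel (Kr), the first of the sequence, were high at both times, with means of 12.68 and 13.07 for hb and 13.65 and 13.56 for Kr, and also come from segmentation. castor (cas), which acts late in the sequence, had levels of 10.25, 9.65 and 10.12 at 3 to 4.5 h and 11.22, 10.96 and 11.77 at 4.5 to 6 h, separate between times but with an adjusted p of 0.0524. Markers of differentiated neurons were mostly at background. Of 11 genes such as Syt1, nSyb, brp, para and ChAT, which serve synapses and excitability, only elav and cpx were expressed in any of the 8 groups of the series, and the other 9 had means between 7.96 and 8.64. elav, the pan-neuronal RNA-binding protein, was at 11.56 and 12.12 (adjusted p = 0.313).

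Of 21 genes of axon guidance and neural adhesion, 1 rose, against 0.77% of all genes, none fell and the median change was 0.44. In 11 of them (52.4%, against 9.47% of all and 15.1% of expressed genes) the later samples all lay above the earlier ones, and in 1 below. Semaphorin 1a (Sema1a), a transmembrane guidance cue, had levels of 11.46, 11.24 and 11.36 at 3 to 4.5 h and 12.81, 12.63 and 12.44 at 4.5 to 6 h and rose 2.42-fold (adjusted p = 0.0194, 0 of 6 fits). The netrin receptor unc-5 had 9.97, 8.64 and 9.72 at 3 to 4.5 h and 10.93, 11.01 and 11.14 at 4.5 to 6 h, a change of 1.59 ± 0.32 that missed the threshold (adjusted p = 0.0536). Changes of 1.12 for the adhesion molecule Fas2 and of 1.01 for the Wnt5 receptor drl missed it as well (adjusted p = 0.0542 and 0.06). The Slit receptor robo2 was already at 14.16, and its ligand sli at 13.05 and later 13.00. Of 11 glial and midline genes none passed. gcm, the switch to glial fate that blood cells also use, was at 12.62 and 12.86, while its target repo, which marks glia, stayed at background with 8.31 and 8.15.

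Notch acts in the choice of neuroblasts through the Enhancer of split complex, whose bHLH repressors are its direct targets. Of 16 Enhancer of split and Bearded genes 2 rose, against 0.77% of all genes and 1.65% of expressed ones. None fell, and the median change was 0.34. E(spl)m3-HLH had levels of 8.48, 8.25 and 8.39 at 3 to 4.5 h and 10.04, 9.39 and 10.50 at 4.5 to 6 h and rose 3.04-fold from background (adjusted p = 0.0311, 1 of 6 fits). E(spl)m2-BFM, a Bearded-family gene of the complex, rose 2.24-fold from 10.80 to 11.97 (adjusted p = 0.0402, 0 of 6 fits, and no call with dye as a covariate). Other members were well above the mean of all transcripts at the earlier time. E(spl)m5-HLH was at 13.48, E(spl)m4-BFM at 14.17, and Tom, a Bearded-family gene outside the complex, at 15.17. None of the 10 core genes of the pathway passed. The levels of the receptor N were 12.92 and 13.27, and those of the ligand Dl 13.91 and 13.96. For fng, the glycosyltransferase that tunes Notch, they were 9.03 and 10.22 (change 1.18, adjusted p = 0.167). ttk, a repressor of neural fate that acts downstream of Notch, lies outside the lists and rose 2.7-fold from 11.80 to 13.24 (adjusted p = 0.0159, 1 of 6 fits).

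**Figure D3:**
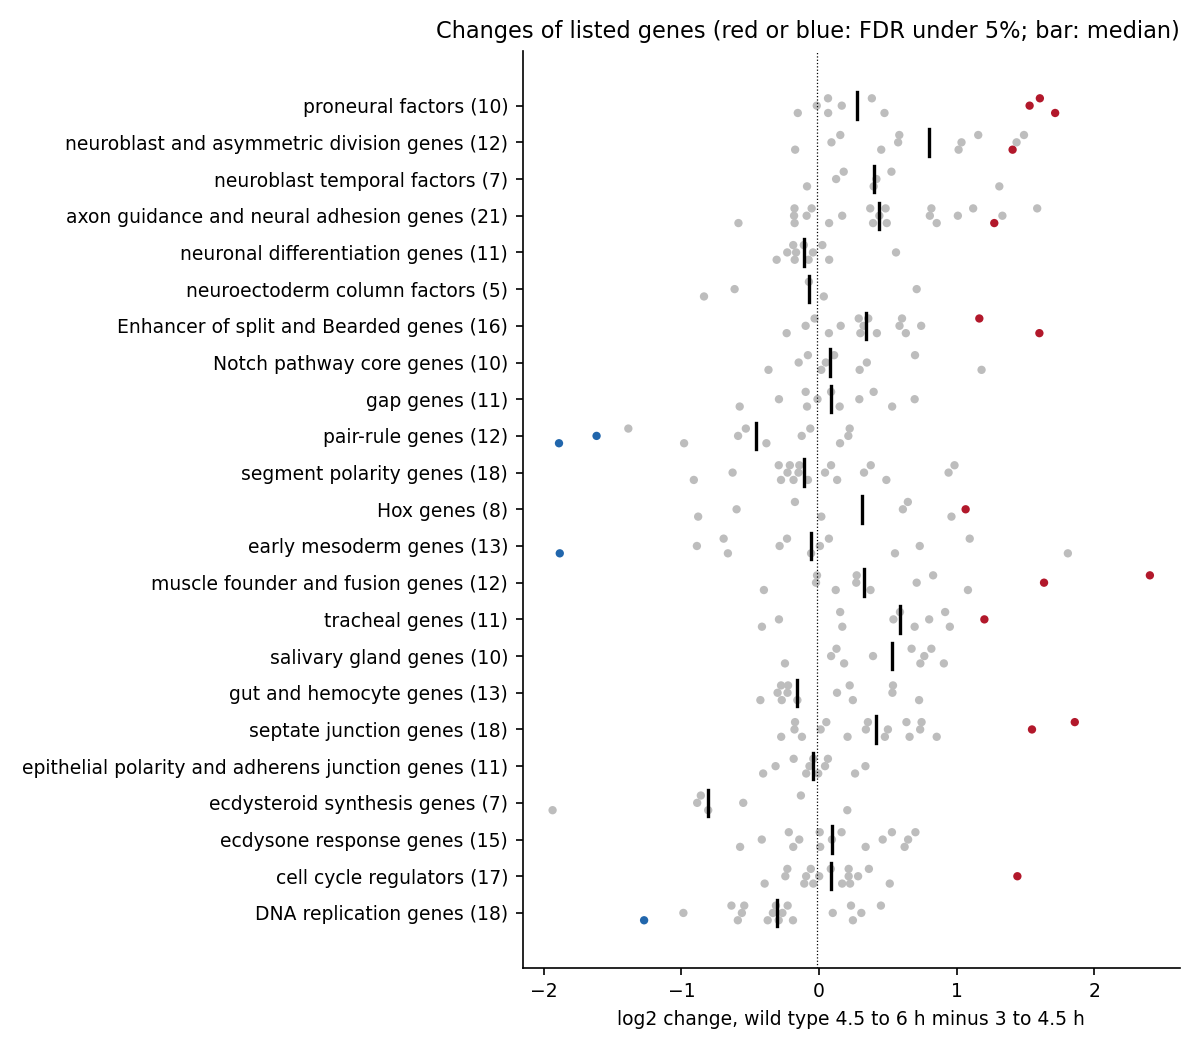
Log2 change from 3 to 4.5 h to 4.5 to 6 h in wild-type embryos (x axis) of every gene of 23 lists, with the number of genes in brackets. Red and blue points passed an FDR of 5%, thick bars are list medians and the dotted line is the median of all genes, −0.01; the neuroblast list has the largest positive median and the ecdysteroid synthesis list the largest negative one of those shown.

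Pair-rule genes, which first divide the blastoderm into segments, had 2 falls and no rise among 12, against 0.513% of all genes falling, and a median change of −0.46. Beside opa, paired (prd) fell 3.07-fold, with levels of 10.33, 10.01 and 9.61 at 3 to 4.5 h and 8.34, 8.31 and 8.44 at 4.5 to 6 h (adjusted p = 0.013, 2 of 6 fits). even skipped (eve) went from 9.28 to 7.89 (change −1.39, adjusted p = 0.0869), and fushi tarazu (ftz) from 10.75 to 9.77 (adjusted p = 0.398), neither a call. The sloppy paired genes, which persist as segment polarity genes, were high throughout, at 13.70 and 13.32 for slp1 and at 12.29 and 12.51 for slp2. No gap gene passed among 11 (median 0.09), and no segment polarity gene among 18 (median −0.11). wingless (wg) was at 12.47 and 12.29, engrailed (en) at 11.50 and 11.63, and cubitus interruptus (ci), the effector of Hedgehog, at 13.59 and 13.51.

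Of the 8 Hox genes, which give segments their identity, proboscipedia (pb) rose, with levels of 8.37, 8.50 and 8.19 at 3 to 4.5 h and 9.33, 9.46 and 9.47 at 4.5 to 6 h, 2.09-fold (adjusted p = 0.0349, 0 of 6 fits, and no call with limma-trend or single transcripts), all below the mean of all transcripts. The trunk genes abd-A (means 11.11 and 12.08) and Abd-B (11.90 and 12.54) had later samples wholly above the earlier ones without passing (adjusted p = 0.141 and 0.246). The samples of Ubx overlapped (11.19 and 11.80), and so did those of Antp, with means of 10.57 and 9.69.

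In the mesoderm twi fell, while lmd and org-1 of the lists, which act in its derivatives, rose. So did Alk and HLH54F, which were chosen after their values were seen, while other genes of the derivatives did not pass. twist (twi), the bHLH factor that establishes the mesoderm, had levels of 13.16, 13.15 and 13.15 at 3 to 4.5 h and 11.34, 11.35 and 11.11 at 4.5 to 6 h, a 3.69-fold fall (log2 change −1.88 ± 0.19 SE, adjusted p = 0.00421 by limma), called in all 6 fits. It was the only call among 13 early mesoderm genes, whose median change was −0.06. For 6 of the 13 the later samples all lay below the earlier ones (9.17% of all genes) and for 3 above (9.47%). The first group held, beside twi, tinman (tin), the heart and gut muscle regulator, at 12.21 and 11.33, and the FGF receptor heartless (htl), at 11.40 and 10.71. The second held bagpipe (bap) and biniou (bin), which specify visceral muscle. The levels of bap were 9.54, 8.35 and 10.14 at 3 to 4.5 h and 11.46, 10.90 and 11.10 at 4.5 to 6 h, a change of 1.81 ± 0.40 SE that missed the threshold (adjusted p = 0.0734), and bin went from 8.35 to 9.44 (adjusted p = 0.158). Mef2, the muscle differentiation factor, was at 13.21 and 13.28.

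Among 12 genes of muscle founders and of myoblast fusion 2 rose, against 0.77% of all genes, and none fell (median 0.32). They were lmd, and org-1, a T-box factor of visceral and some somatic muscle founders. The levels of org-1 were 8.36, 8.71 and 8.50 at 3 to 4.5 h and 9.90, 9.62 and 10.95 at 4.5 to 6 h (a 3.11-fold rise, adjusted p = 0.048, 0 of 6 fits, and no call with dye as a covariate). The fusion receptor sns went from 8.47 to 9.55 (adjusted p = 0.121), and nau, a MyoD homologue, remained at background (8.11 and 8.09). Outside the lists, the visceral founder receptor Alk had levels of 9.33, 9.44 and 8.68 at 3 to 4.5 h and 11.50, 10.80 and 10.83 at 4.5 to 6 h and rose 3.72-fold (adjusted p = 0.0161, 3 of 6 fits). HLH54F, a bHLH factor of the longitudinal gut muscles, rose 2.61-fold from 8.68 to 10.06 (adjusted p = 0.0371, 1 of 6 fits). Structural muscle genes gave no call among 12, and Mhc, the muscle myosin, was at 8.79 and 8.89.

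Among the ectodermal organs that invaginate from the extended germ band, the tracheae had a call in trachealess (trh), their bHLH-PAS regulator. Its mean rose 2.3-fold from 8.58 to 9.79 (adjusted p = 0.0366, 1 of 6 fits). It averages 4 rows of the table, of which 1 was a gene model since joined to trh and changed by −0.51 at background, while the 3 others changed by 1.08 to 2.14. This was the only call among 11 tracheal genes, with a median of 0.59. In 5 of the 11 the later samples all lay above the earlier ones, against 9.47% of all genes, and in none below. The transcription factor rib went from 12.49 to 13.41 (adjusted p = 0.0879), and the FGF bnl, which guides tracheal branches, from 10.41 to 11.21 (adjusted p = 0.185). Of 10 salivary gland genes none passed (median 0.53), while in 4 of them the later samples all lay above the earlier ones and in none below. CrebA, a regulator of secretory genes, was at 11.83 and 12.50 (adjusted p = 0.19), and fkh, the fork head factor of gland and gut, at 12.18 and 12.31. No gut or hemocyte gene passed among 13, and no adherens junction gene among 11, where DE-cadherin (shg) was at 13.71 and 13.77.

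Septate junctions seal the epithelia of insects and assemble later in embryogenesis. Of 18 of their genes 2 rose, against 1.65% of expressed genes, none fell, and the median was 0.42. In 9 of the 18, all of them expressed, the later samples lay wholly above the earlier ones, against 15.1% of expressed genes, and in 1 below. coracle (cora), a band 4.1 protein of the junction, had levels of 9.51, 9.20 and 9.03 at 3 to 4.5 h and 10.88, 10.69 and 10.80 at 4.5 to 6 h and rose 2.93-fold (adjusted p = 0.0108, 4 of 6 fits). Its 4 annotated transcripts changed by 1.12 to 2.29. nervana 1 (nrv1), a β subunit of the sodium pump, had levels of 8.47, 8.16 and 7.96 at 3 to 4.5 h and 9.89, 10.67 and 9.61 at 4.5 to 6 h, a 3.63-fold rise (adjusted p = 0.0202, 2 of 6 fits). The pump's α subunit Atpalpha (11.65 and 12.39, adjusted p = 0.105) and nrv2 (12.72 and 13.46, adjusted p = 0.122) did not pass, but their groups did not overlap.

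Among the signalling pathways, the calls were of single members. Later samples lay wholly above the earlier ones in 4 of 15 BMP, 1 of 8 FGF, 3 of 7 JAK/STAT and 3 of 15 EGF receptor pathway genes. They lay wholly below in 1, 3, 2 and 0 of these. Of all genes the shares were 9.47% and 9.17%. Dad, an inhibitory Smad that BMP signalling itself induces, was the only call among 15 BMP pathway genes (median 0.13). Its levels were 8.84, 8.65 and 8.78 at 3 to 4.5 h and 10.20, 10.44 and 10.87 at 4.5 to 6 h, a 3.35-fold rise from background (adjusted p = 0.0102) that all 6 fits called. The ligand dpp was at 9.14 and 9.55 and the receptor tkv at 12.50 and 12.60. Of 8 FGF pathway genes thisbe (ths), the ligand of the mesodermal receptor, fell 2.8-fold, with levels of 13.04, 12.89 and 12.86 at 3 to 4.5 h and 11.59, 11.51 and 11.23 at 4.5 to 6 h (adjusted p = 0.0108, 4 of 6 fits). Of 7 JAK/STAT genes the ligand upd1 fell 2.55-fold to background, from 9.53 to 8.17 (adjusted p = 0.0282, 0 of 6 fits). Eiger (egr), a TNF ligand and the only call among 18 dorsal ectoderm and amnioserosa genes, fell 2.8-fold from 11.87 to 10.38 (adjusted p = 0.0311, 0 of 6 fits). None of 15 EGF receptor pathway genes passed, and rho, the protease that releases the ligand, went from 10.42 to 11.38 (adjusted p = 0.0971).

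Of 17 cell cycle regulators 1 rose, against 1.65% of expressed genes, and none fell (median 0.09). It was dacapo (dap), an inhibitor of the Cyclin E kinase that lets cells leave the cycle, with levels of 12.56, 12.45 and 12.40 at 3 to 4.5 h and 14.11, 13.79 and 13.83 at 4.5 to 6 h, a 2.72-fold rise (adjusted p = 0.0108, 4 of 6 fits). string (stg), the phosphatase that triggers mitosis, was at 13.59 and 13.34, and CycE at 13.14 and 13.05. Of 18 replication genes 1 fell, against 1.21% of expressed genes, and none rose (median −0.30). The origin subunit Orc2 fell 2.41-fold from 10.99 to 9.72 (adjusted p = 0.0485, 1 of 6 fits, and no call with dye as a covariate). In 8 of the 18, all of them expressed, the later samples lay wholly below the earlier ones, against 12.8% of expressed genes, and in 2 above. Z600, an inhibitor of mitosis in the gastrulating mesoderm that lies outside the lists, fell 3.56-fold to background, with levels of 9.75, 10.63 and 9.63 at 3 to 4.5 h and 8.11, 8.13 and 8.28 at 4.5 to 6 h (adjusted p = 0.0174, 2 of 6 fits). Of 9 apoptosis genes the inhibitor Diap1 rose 1.93-fold from 12.49 to 13.44 (adjusted p = 0.048, 0 of 6 fits, and no call with dye as a covariate, ribosomal protein scaling or single transcripts), while the death genes hid (11.22 and 11.90) and rpr (11.55 and 11.69) did not pass.

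The Halloween genes, which make the moulting hormone ecdysone, gave no call among 7 but had the lowest list median, −0.80. spook (spo), which acts early in the synthesis, had levels of 12.27, 12.57 and 11.03 at 3 to 4.5 h and 10.45, 10.22 and 9.40 at 4.5 to 6 h (change −1.94 ± 0.41 SE, adjusted p = 0.0632). phantom (phm), a later hydroxylase, went from 9.09 to 8.20 (adjusted p = 0.0869), and disembodied (dib) from 10.10 to 9.29 (adjusted p = 0.25). In 4 of the 7 the later samples all lay below the earlier ones, against 9.17% of all genes, and only 2 of the 7 were expressed in any group. None of 15 ecdysone response genes passed (median 0.09), with the receptor EcR at 10.91 and 11.44. Glycolysis genes, 13 in number, gave no call either, and Gapdh1 and Tpi were at background at both times. No maternal axis or germ plasm gene passed among 19, where oskar (osk) was at 9.18 and 9.29 and smaug (smg) at 13.05 and 12.61, and none of 14 cellularization and gastrulation genes did. The closest of these was halo, a motor cofactor of the blastoderm, at 10.50 and 9.28 (adjusted p = 0.0552).

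The earlier wild-type collections, which the comparison did not use, set the 175 genes in time. Of the 105 rising genes, 30 (28.6%) were expressed at 0 to 1.5 h, when RNA in the embryo is almost wholly maternal, against 33.8% of all genes. Another 74 (70.5%) were expressed at neither 0 to 1.5 h nor 1.5 to 3 h, against 63.7% of all genes, with median levels of 8.28, 8.53, 8.91 and 10.61 over the 4 times. Of the 70 falling genes, 41 (58.6%) were expressed at 0 to 1.5 h, and 21 (30.0%) at 1.5 to 3 h but not before. Of all genes these were 33.8% and 2.49%. A gene at background at 3 to 4.5 h could hardly be called as falling, and most of all genes were not expressed then. The shares are therefore a description only. The median levels of these 21 over the 4 times were 8.89, 11.31, 11.12 and 9.57. net, dan, twi, opa and prd were among them. The levels of net at the 2 earlier times were 8.57, 8.02 and 8.47 and 10.78, 11.00 and 11.65, and those of twi 9.51, 9.67 and 9.52 and 12.75, 12.71 and 12.60.

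Several of the 30 early genes that rose were lowest at 3 to 4.5 h. This was so for 17 of the 30, against 27.1% of all genes expressed at 0 to 1.5 h, but the 3 to 4.5 h samples also chose the genes, so the count is a description only. nrv1 had 12.80, 12.79 and 12.92 at 0 to 1.5 h and 11.94, 11.90 and 11.23 at 1.5 to 3 h before its low values. dap had 13.69, 13.63 and 13.53 and then 11.86, 11.96 and 10.95, and so was lowest at 1.5 to 3 h. Mnt, a partner of Max that opposes Myc, went through means of 13.46, 12.71, 10.61 and 11.71 (last rise 0 of 6 fits), and the nuclear receptor Hr78 through 12.30, 10.42, 8.93 and 10.26 (3 of 6 fits).

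**Figure D4:**
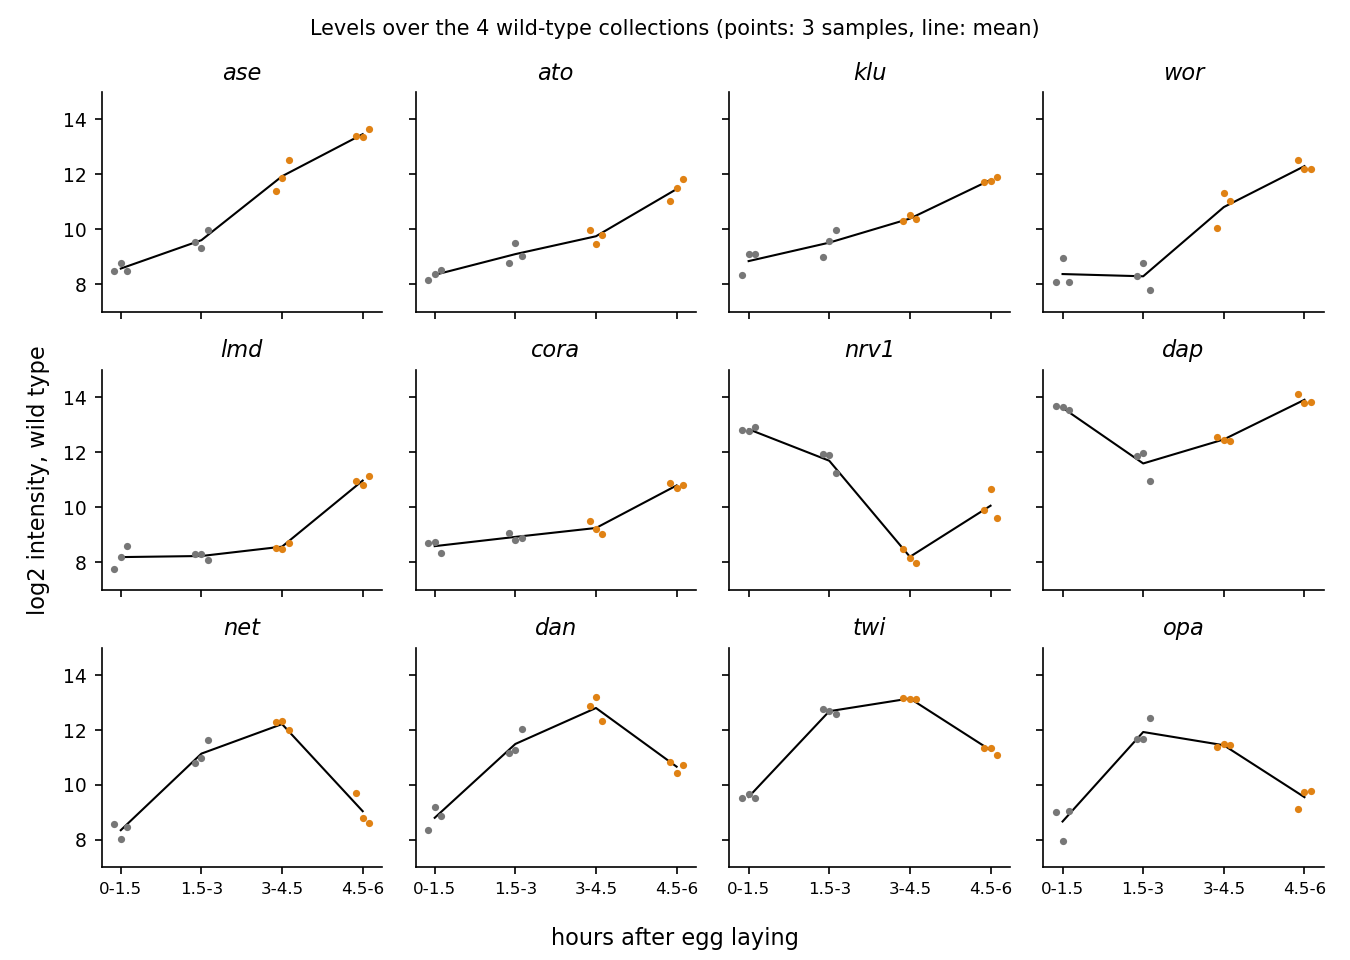
Log2 intensity (y axis) of 12 genes in wild-type embryos at the 4 collection times (x axis, hours after egg laying). Points are the 3 samples and lines join the means; the orange points are the 6 samples compared here. lmd and cora have their highest values at the last time, nrv1 and dap fall before they rise, and net, dan, twi and opa appear at 1.5 to 3 h and fall at the last time.

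Embryos of brat mutant mothers, which are separate samples, were collected over the same interval. Of the 105 genes that rose in wild type, 102 had a higher mean at 4.5 to 6 h in these embryos too (97.1%, against 48.8% of all genes), and of the 70 that fell, 64 had a lower one (91.4%, against 51.2%). Groups that did not overlap in the same direction were seen for 53 of the 105 and 30 of the 70, against 6.62% and 6.57% of all genes. The median change of the rising genes was 0.64 in brat mutant embryos and 1.45 in wild type, and that of the falling genes −0.45 and −1.45. The 175 genes had been chosen by their wild-type change, so that the wild-type medians are those of selected values. In brat mutant embryos themselves limma called 3 genes (0.022%), all lower at the later time: net, dan and twi. The levels of twi were 12.89, 13.01 and 12.33 at 3 to 4.5 h and 10.34, 10.66 and 9.97 at 4.5 to 6 h (change −2.42 ± 0.26 SE, adjusted p = 0.0227), and those of net 11.98, 11.84 and 10.92 and 8.59, 8.62 and 9.15 (change −2.80, adjusted p = 0.0227). The brat mutant change minus the wild-type change was −0.54 ± 0.32 SE for twi and 0.37 ± 0.45 SE for net (adjusted p = 0.907 and 0.964).

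The difference between genotypes in the size of the change was tested as an interaction in the 12 samples, and no gene of 13633 passed an FDR of 5% (lowest adjusted p = 0.483). At an unadjusted p under 0.05 there were 760 genes (5.57%). Clk, chosen after its values were seen as a large difference, is the circadian bHLH-PAS activator and rose 3.42-fold in wild type, with levels of 8.74, 8.91 and 8.77 at 3 to 4.5 h and 10.92, 10.21 and 10.61 at 4.5 to 6 h (adjusted p = 0.0102, 5 of 6 fits). In brat mutant embryos its levels were 8.09, 7.93 and 7.91 and then 8.20, 8.02 and 8.00, all at background (interaction −1.68 ± 0.28 SE, adjusted p = 0.483). nrv1 and cora differed in another way, since they were already high in brat mutant embryos at 3 to 4.5 h. Those levels were 11.74, 11.67 and 12.29 for nrv1 and 11.25, 10.99 and 11.55 for cora, above every wild-type sample of either time. The lists of muscle structure and cuticle markers were drawn up to show older embryos retained in a collection. Levels of both lists differed between genotypes as well. For the 12 muscle structure markers the mean level per sample was 9.06 to 10.07 and 9.55 to 9.97 in wild type at the 2 times. In brat mutant embryos it was 10.14 to 11.36 and 10.95 to 11.35. Of these markers 3 were expressed in wild type at each time, and 9 and then 10 in brat mutant embryos. The 14 cuticle markers averaged 8.40 to 9.05 and 8.52 to 8.73 in wild type against 9.38 to 9.85 and 9.50 to 9.66 in brat mutant embryos. Dye was reversed between the genotypes, so the levels of nrv1, cora and these markers differ in dye as well as genotype. The parts of dye and of retained older embryos in these shifts were not tested. Nor was the part of the shifts in the genotype values above.

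**Figure D5:**
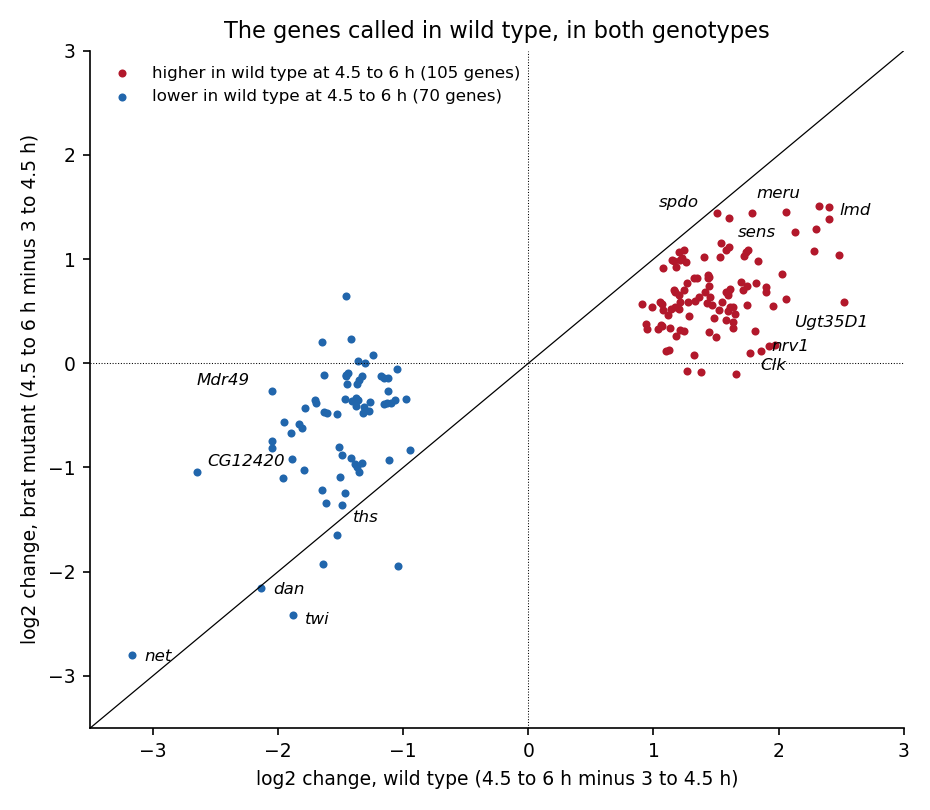
Log2 change from 3 to 4.5 h to 4.5 to 6 h in wild-type embryos (x axis) and in embryos of brat mutant mothers (y axis) of the 105 genes that rose (red) and the 70 that fell (blue) in wild type. The line marks equal changes; 102 red points lie above 0 and 64 blue points below 0 on the y axis, and net, dan and twi are the 3 genes called in both genotypes.

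Ovary and follicle cell markers, 13 in number, were expressed in none of the 4 groups at these times, and their mean per wild-type sample was 8.09 to 8.29 and then 8.13 to 8.23. Germ cell markers (pgc, nos, vas and gcl) averaged 9.25 to 9.70 and then 9.38 to 9.74 per wild-type sample, and hemocyte markers (srp, Pxn and crq) 10.86 to 11.27 and then 10.91 to 11.20. Of the cuticle markers, TwdlM, a cuticle protein of late embryos, varied widely between samples of 1 group, with 12.72, 12.30 and 9.07 at 3 to 4.5 h and 9.33, 11.81 and 12.51 at 4.5 to 6 h.

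Where a called gene had several rows on the array, these mostly changed in the same direction but by different amounts. Their average made the call, so this agreement is a description only. Among the 175 genes 50 had more than 1 row, and the trh model named above was the only row that changed against its gene. The widest spread among the others was that of Pka-C3, a protein kinase catalytic subunit, whose 2 transcripts changed by −2.81 and −0.81.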

How the data were processed

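Total RNA was extracted with TRI reagent from whole embryos of 24 collections, copied into double-stranded cDNA with random hexamers and oligo-dT, labelled with Cy3 or Cy5 and hybridized in pairs to custom NimbleGen arrays. The deposited values are log2 intensities per transcript that the authors made by RMA with quantile normalization over all samples in ArrayStar. Details of the background correction and the transcript annotation release were not given in the sources used here, nor was which samples shared an array. Double-stranded cDNA does not keep strand, so a gene and its antisense partner cannot be told apart.

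Of 17775 entries, 17769 had values. Symbols were updated through RefSeq's table of the Drosophila Release 6 assembly, which named 16983 transcripts (291 were ambiguous and 495 were not found and kept their symbol), and 11 older names were matched by hand. Entries were averaged to 13633 genes. This joined 372 symbols that RefSeq has since merged, and 7 were kept apart. Each comparison was fitted with limma 3.58.1 (lmFit and eBayes) in R 4.3.3 on the samples of the groups compared, two-sided, and called at a Benjamini-Hochberg FDR under 5%. limma took the place of SAM, which the study's methods name, because 3 against 3 samples allow only 10 distinct splits. A gene was called expressed when its group lay above the mean of all transcripts by limma, one-sided and at the same FDR, using that group's samples. The mean was taken within each sample, and is 9.56 over all samples. The difference between genotypes was the interaction term in 12 samples. The fits were run on simulated data with independent noise and with spreads shuffled between genes. Those data held no shared replicate effect and no link of spread to level, so they do not bear on either.

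Genes were named by rule: the 10 largest rises and 10 largest falls among called genes without overlap whose higher mean exceeded 9.56, members of the gene lists, and the largest interactions, had any passed. Genes given as outside the lists, Clk, Mnt, Hr78, Pka-C3 and those of the closing section were chosen after their values were seen. The comparison and the gene lists were chosen with earlier results of these data known. The labels call the replicates biological. Alternatives changed the filter, the scaling, the dye or replicate term, the samples in the fit, the unit and the test.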

Additional observations from a re-analysis of the deposited data

How the results depend on the processing

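None of the 105 higher and 70 lower genes changed direction under an alternative, where single transcripts stand for the transcript with the lowest p of each gene (1 other entry of trh changed by −0.51), and the median change over all genes stayed between −0.03 and 0.03. Counts of higher and lower genes were 172 and 120 when only the 5560 expressed genes were tested, which adjusts over fewer genes. They were 219 and 142 in 1 fit of the 12 wild-type samples, 262 and 174 in 1 fit of all 24 samples, 186 and 147 with limma-trend, and 214 and 92 with SAM. The other settings gave counts within 1.5 times those reported: dye as a covariate (91 and 50), single transcripts (139 and 88), scaling to 89 ribosomal protein genes (101 and 64), median centring (105 and 69) and a minimum of 1.5-fold (105 and 70). Leaving out 1 sample gave 18 to 47 higher and 13 to 29 lower genes, fewer in each of the 6 fits. With dye as a covariate calls were lost for ase, org-1, E(spl)m2-BFM, Diap1, Orc2, Ndg, Ogdh, Pgant6, Prosbeta3 and Prosbeta6 among the genes with values here, with limma-trend for Ndg and pb, with ribosomal protein scaling for Diap1, Ndg and Ogdh, with single transcripts for Diap1 and pb, with median centring for Ogdh, and in the fits of 12 and of 24 samples for LanA. Beyond the numbers of genes and samples that enter, the cause was not tested.

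Samples of the 2 times share replicate numbers. Deviations from the group means correlated between 0.0649 and 0.0904 for the same number and between −0.0529 and −0.0224 for other numbers, and every sample correlated best with its own number. The correlations for the same number were all positive but did not reach 0.1, and the main fit took the samples to share only a number. Whether they also shared a batch was not tested. With the replicate number as a block, 41 higher and 28 lower genes were called, of which 40 and 27 were among those reported. Most reported calls were thus not kept with the block, and these losses are not marked with the single genes. Of the genes named above, lmd, meru, Tps1, Dad, net, dan, danr, twi, opa and Sptr were among those called in this and every other setting.

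The difference between genotypes gave 0 genes in most settings. The exceptions were 1 gene in 1 fit of 24 samples and a range of 0 to 1 when 1 of the 12 samples was left out, with 1 gene without replicate 3 of the brat mutant at 4.5 to 6 h. With the replicate block it was 0. SAM was not run for the interaction. Weak signals limit the arrays, and 71 of the rising genes and 7 of the falling genes were not significantly above the mean of all transcripts at the earlier time.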

Other observations

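The following gene groups were put together after the values had been seen and are described without a test of the group. Among 17 genes of protein translocation into the endoplasmic reticulum and of the coat of its transport vesicles, all of them expressed, 2 rose and none fell. Of all genes 0.77% rose, and of expressed genes 1.65%. A higher mean at 4.5 to 6 h was seen for 15 of the 17, against 48.2% of all genes and 2924 of the 5560 expressed ones. The median change was 0.47, against −0.01 over all genes and 0.03 over expressed ones. Sar1, the GTPase that starts the vesicle coat, rose 2.43-fold from 11.79 to 13.07 (adjusted p = 0.0368 by limma, 0 of the 6 fits without 1 sample). The other was SrpRbeta, a subunit of the receptor that docks ribosomes (2.31-fold, adjusted p = 0.0402, 0 of 6 fits). Among 10 basement membrane genes 3 rose, against 0.77% of all genes, and none fell (median 0.56). The laminin chain LanA had levels of 12.28, 12.19 and 12.08 at 3 to 4.5 h and 13.58, 13.53 and 13.84 at 4.5 to 6 h, a 2.77-fold rise (adjusted p = 0.0108, 4 of 6 fits), which was no call in the fits of 12 or 24 samples. Papilin (Ppn), a matrix proteoglycan, went from 8.81 to 10.41 (adjusted p = 0.0153, 2 of 6 fits), and nidogen (Ndg), which links laminin to collagen, from 8.80 to 9.79 (adjusted p = 0.0489, 0 of 6 fits, and no call with dye as a covariate, limma-trend or ribosomal protein scaling). Of 11 transferases of O-glycosylation, C1GalTA, Pgant6 and Pgant9 rose 2.27-, 2.39- and 2.79-fold, against 0.77% of all genes rising, and the median was 0.19. Their adjusted p-values were 0.0358, 0.0413 and 0.0413, with 0, 0 and 1 of 6 fits, and Pgant6 was not called with dye as a covariate.

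Of 12 subunits of the 20S proteasome, the proteolytic core, all of them expressed, 10 had a lower mean at the later time. A lower mean was seen for 51.8% of all genes and 2636 of the 5560 expressed ones. Of the 12, 2 fell, against 0.513% of all genes and 1.21% of expressed ones (median −0.41). Prosbeta3 fell 2.51-fold from 12.19 to 10.86 (adjusted p = 0.0409, 0 of 6 fits) and Prosbeta6 2.07-fold from 12.81 to 11.76 (adjusted p = 0.0405, 0 of 6 fits), and neither was called with dye as a covariate. None of 18 subunits of the 19S regulatory particle was called (median 0.10), nor were any of 89 cytosolic ribosomal protein genes (median 0.00). In the citric acid cycle 2 of 15 genes fell, against 0.513% of all genes. They were ScsbetaA, a subunit of succinyl-CoA synthetase (3.25-fold, adjusted p = 0.0339, 0 of 6 fits), and Ogdh (2.1-fold, adjusted p = 0.0498, 0 of 6 fits), which was not called with dye as a covariate, ribosomal protein scaling or median centring. The median over the group was −0.12.

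Single genes of other functions stood out by their levels. apolpp, the lipid carrier of the hemolymph, rose 3.92-fold, with levels of 10.49, 9.94 and 9.65 at 3 to 4.5 h and 12.65, 11.36 and 11.99 at 4.5 to 6 h (adjusted p = 0.0311, 1 of 6 fits). Its lipid transfer partner Apoltp rose 3.37-fold from 8.76 to 10.52 (adjusted p = 0.0116, 3 of 6 fits). The RNA-binding protein lin-28, which blocks let-7 maturation in other animals, went from 9.51 to 11.41 and was called in all 6 fits (adjusted p = 0.0048). Calmodulin (Cam), the calcium sensor of all cells, fell 2.23-fold, with levels of 14.79, 14.63 and 14.52 at 3 to 4.5 h and 13.50, 13.65 and 13.31 at 4.5 to 6 h (adjusted p = 0.0282, 0 of 6 fits). The serotonin receptor 5-HT2A, which acts in germ band extension, fell 3.46-fold, with levels of 10.49, 10.44 and 10.03 at 3 to 4.5 h and 8.63, 8.67 and 8.29 at 4.5 to 6 h (adjusted p = 0.00848), and was called in all 6 fits.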
